A study of Caenorhabditis elegans with 2 samples.

Results

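The 10 genes described here encode the dosage compensation complex of the nematode Caenorhabditis elegans: sdc-1, sdc-2, sdc-3, dpy-21, dpy-26, dpy-27, dpy-28, dpy-30, mix-1 and capg-1. They were chosen by name, as the known subunits of the complex, and all 10 were found among the 19973 protein-coding genes of the Ensembl annotation of the assembly WBcel235, which is ce11. Binding of CEH-82, a homeobox protein, had been mapped by ChIP-seq, the sequencing of immunoprecipitated chromatin, in whole larvae of the first larval stage (L1), with males and hermaphrodites pooled. The strain, OP212, carried ceh-82 fused to enhanced green fluorescent protein (eGFP) on ddEx58, a transgene that by its name is an extrachromosomal array. Both replicates carried it and the unc-119(ed3) allele on chromosome III. Such arrays can be lost from some cells and can carry extra gene copies, and the files do not say in which cells the fusion protein was present. There were 2 biological replicates in 1 group and no second condition, so values are given by replicate and beside those of all protein-coding genes, with no test between conditions.

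Worm hermaphrodites carry a pair of X chromosomes and males carry 1. In hermaphrodites the dosage compensation complex binds both X chromosomes and lowers their transcription, and it stays bound after its loading in the embryo. The complex joins a condensin-like ring (DPY-27, MIX-1, DPY-26, DPY-28 and CAPG-1), which shares all but DPY-27 with the mitotic and meiotic condensin I, to the SDC proteins, which bring it to X. It also holds DPY-30, which is a subunit of the COMPASS histone methyltransferase complexes too, and DPY-21, a histone H4 lysine 20 demethylase. The measurements below concern binding of CEH-82 at the genes for these proteins, not binding of the complex itself.

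Of the 10 genes, 6 had a peak of the authors' optimal list between 2000 bp upstream of the gene and its 3' end: sdc-1, sdc-2, dpy-26, dpy-27, dpy-30 and mix-1. Among all protein-coding genes the share was 22.5% (4486 of 19973). The optimal list holds the 3913 peaks of highest signal out of 16974 in the list called on both replicates pooled, after a threshold on the irreproducible discovery rate (IDR). A stricter promoter window ran from 1000 bp before any transcript's 5' end to 200 bp after it, and the peak's summit had to lie in it. By that rule the same 6 of 10 genes were bound, against 16% of all protein-coding genes. The 6 genes held 7 optimal peaks, 1 each at sdc-1, sdc-2, dpy-26, dpy-27 and dpy-30 and 2 at mix-1.

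**Figure D1:**
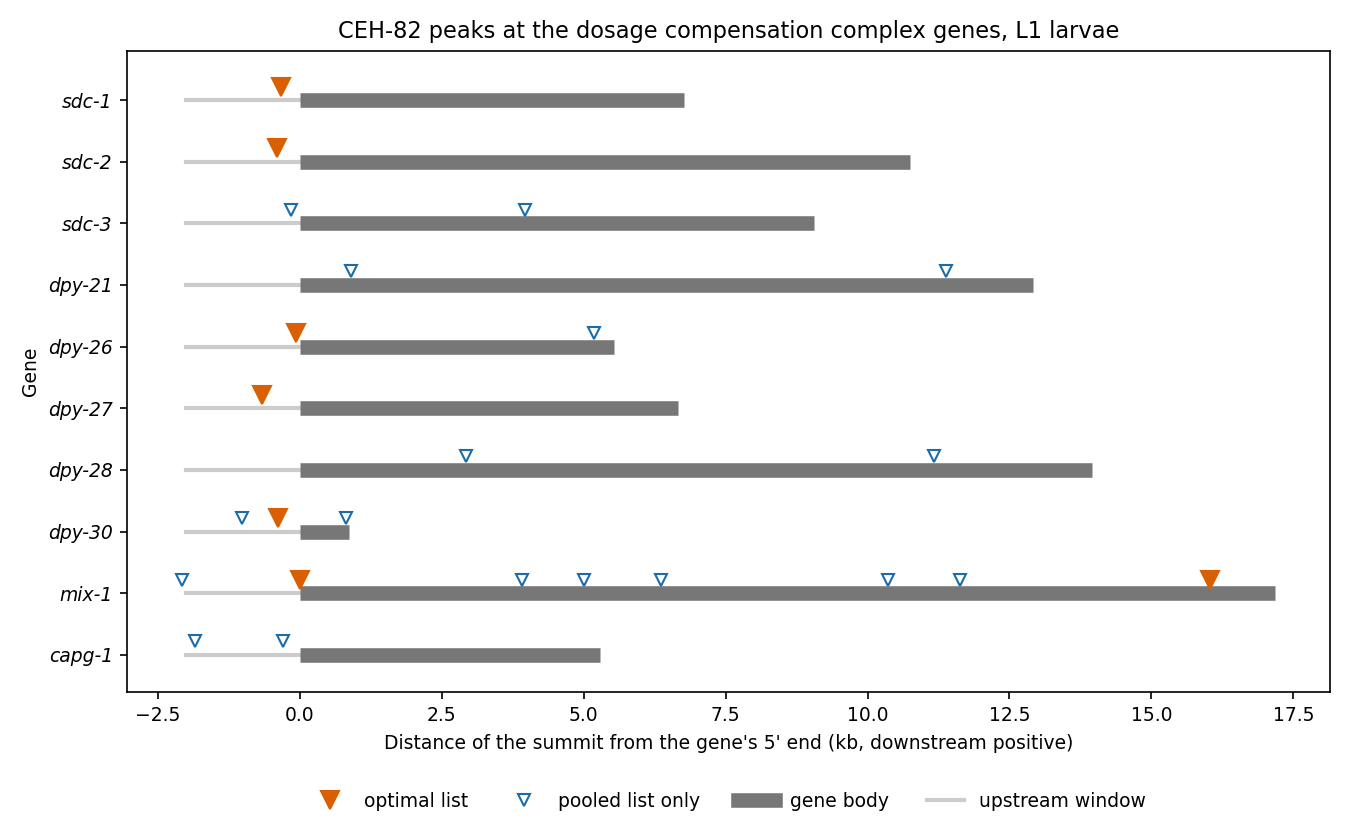
Position of every pooled peak in the window of each gene, as the distance in kb from the gene's most upstream 5' end. Filled triangles are optimal peaks, open triangles are peaks of the pooled list only, dark bars are gene bodies and thin lines the 2000 bp upstream. Optimal summits lie just upstream of 5 genes, and mix-1 holds 1 at its 5' end and 1 at 16040 bp.

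Sequences are shown for the strongest member peak and for 6 peaks upstream of members, to show which hold the run of GA repeats that is common under peaks of this factor and which do not. They are RefSeq genome sequence of ce11, 5' to 3' on the strand of the named gene, 100 bp on either side of the summit without UTR bases, except the mix-1 peak, which is shown whole. Capitals mark GAGAGA or TCTCTC, which is the same run on the other strand. In the mix-1 sequence they mark instead letters that match the consensus of an A box and of a B box. In tRNA genes these boxes are the paired internal promoter, whereas here the letters lie in an intron of mix-1. The regions are, in order, chrX:11522196-11522396 for sdc-2, chrIII:3820241-3820441 for dpy-27, chrX:16275333-16275533 for sdc-1, chrIV:12451336-12451509 for dpy-26, chrV:12191038-12191238 for dpy-30, chrV:15048260-15048460 for sdc-3 (a pooled peak that the optimal list leaves out) and chrII:10840156-10840415 for mix-1. The sequences of sdc-2, sdc-1, dpy-30 and mix-1 are on the plus strand and those of dpy-27, dpy-26 and sdc-3 on the minus strand.
sdc-2: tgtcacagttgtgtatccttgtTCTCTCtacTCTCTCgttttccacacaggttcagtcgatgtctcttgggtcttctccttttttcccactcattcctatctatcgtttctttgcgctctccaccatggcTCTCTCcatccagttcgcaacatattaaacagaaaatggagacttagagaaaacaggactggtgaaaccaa
dpy-27: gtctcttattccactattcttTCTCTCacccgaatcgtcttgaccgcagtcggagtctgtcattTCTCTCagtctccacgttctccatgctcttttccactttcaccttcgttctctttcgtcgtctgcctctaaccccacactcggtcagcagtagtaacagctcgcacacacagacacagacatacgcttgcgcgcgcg
sdc-1: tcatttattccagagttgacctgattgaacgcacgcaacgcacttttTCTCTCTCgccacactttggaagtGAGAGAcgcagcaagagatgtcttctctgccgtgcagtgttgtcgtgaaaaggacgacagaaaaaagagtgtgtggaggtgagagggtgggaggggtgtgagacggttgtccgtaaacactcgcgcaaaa
dpy-26: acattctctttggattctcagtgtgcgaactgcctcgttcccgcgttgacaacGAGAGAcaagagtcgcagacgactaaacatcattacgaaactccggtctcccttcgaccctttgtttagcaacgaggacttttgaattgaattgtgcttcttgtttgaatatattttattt
dpy-30: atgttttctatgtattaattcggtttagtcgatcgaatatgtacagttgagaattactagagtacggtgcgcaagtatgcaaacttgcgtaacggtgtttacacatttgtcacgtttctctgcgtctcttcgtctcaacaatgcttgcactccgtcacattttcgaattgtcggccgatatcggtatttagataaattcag
sdc-3: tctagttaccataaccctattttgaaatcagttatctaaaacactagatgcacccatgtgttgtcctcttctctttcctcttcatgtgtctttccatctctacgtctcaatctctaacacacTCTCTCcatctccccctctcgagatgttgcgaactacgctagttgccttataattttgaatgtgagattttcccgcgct
mix-1: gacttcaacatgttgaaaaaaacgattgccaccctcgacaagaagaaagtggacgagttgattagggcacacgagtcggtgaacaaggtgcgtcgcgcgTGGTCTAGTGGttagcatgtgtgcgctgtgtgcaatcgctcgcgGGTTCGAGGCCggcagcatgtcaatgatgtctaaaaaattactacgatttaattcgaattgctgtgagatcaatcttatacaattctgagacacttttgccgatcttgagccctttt

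GAGAGA on either strand lay within 100 bp of the summit in 4 of the 7 optimal member peaks, at sdc-1, sdc-2, dpy-26 and dpy-27, against 47.5% of all 3913 optimal peaks and 40.4% of the 2479 optimal peaks in promoter windows of protein-coding genes. The members' count was near that background. The sdc-2 window held TCTCTC 3 times, the dpy-27 window 2 times, and the sdc-1 window held TCTCTC 2 times with overlap and GAGAGA 1 time, read on the gene's strand. The dpy-30 window and both mix-1 windows held none, and the weaker sdc-3 peak held 1. These are counts of letters under peaks, with no count in unbound promoters beside them, and no site was assigned to the protein. GCGCAG was in none of the 7 windows, against 431 of the 3913 optimal peaks. The same held for TAATTA, a core of many homeodomain sites (3.91%), for the E-box CACGTG (5.37%) and for the GATA-type TGATAA (6.64%), all searched on both strands. In the whole dpy-26 peak TAATTA was present, as in 6.18% of whole optimal peaks. GC content of the 7 windows ran from 36.8% to 51.7%, against a median of 44.3% over optimal peaks (quartiles 39.3 and 49.3%).

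The SDC genes come first, since their products bring the complex to X. Both X-linked members belong to them, and both were bound, where 20.6% of the 2731 X-linked protein-coding genes had an optimal peak in the same window. sdc-2 (X, 11522707 to 11533450, plus strand, 1 annotated 5' end) encodes the large protein that is made in XX embryos and starts assembly of the complex on X. Its optimal peak lay at 11522166 to 11522425, in the upstream intergenic stretch, with a signal of 83.6, and ranked 1083 in the optimal list. In percentiles of that list, where 100 is the strongest peak, this was 72.3. In replicate 1 the peak had a signal of 54.0 (rank 959) with its summit 445 bp upstream of the 5' end, and in replicate 2 a signal of 36.2 (rank 943) with its summit 411 bp upstream. The ranks in the replicates were close, whereas the signals, which depend on depth, are on each list's own scale. Replicate 2 had a further peak in a coding exon at 4109 bp (rank 4352), which was in neither the pooled list nor that of replicate 1.

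sdc-1 (X, 16275763 to 16282534, plus strand, 2 annotated 5' ends) encodes a zinc finger protein that acts with SDC-2 in dosage compensation and sex determination. Its only peak in any list was the upstream one, at 16275303 to 16275562, with a signal of 59.0 and rank 1828, at the 53.3 percentile of the optimal list. Replicate 1 gave a signal of 37.4 (rank 1743) and replicate 2 a signal of 29.6 (rank 1307). The summit lay 330 bp upstream of the nearest 5' end in the optimal list, 347 bp in replicate 1 and 295 bp in replicate 2.

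sdc-3 (V, 15039148 to 15048207, minus strand) encodes the zinc finger protein that, with SDC-2, recruits the condensin-like subunits, and it had no optimal peak. A pooled peak lay 153 bp upstream of its 5' end at 15048230 to 15048489, with a signal of 24.6 at rank 4319, just past the 3913 of the optimal list. The last optimal peak had a signal of 27.6. Its −log10 q-value was 2.61, where the optimal member peaks were all at the list's ceiling of 3.82. In replicate 1 this peak had a signal of 16.9 and ranked 3956, and in replicate 2 it had a signal of 8.98 and ranked 5129. The nearest optimal summit was 16978 bp upstream of the gene. A further pooled peak of sdc-3, at 3971 bp inside a coding exon, ranked 9077.

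dpy-30 and dpy-21 encode the associated chromatin proteins, and they differed. dpy-30 (V, 12191519 to 12192385, plus strand), the shortest member at 867 bp, encodes the small protein found in the COMPASS complexes as well. Its optimal peak at 12191008 to 12191267 had a signal of 51.4, ranked 2168 (44.6 percentile) and had its summit 381 bp upstream. Replicate 1 gave a signal of 35.0 (rank 1888), and replicate 2 a signal of 15.3 (rank 2920) with a −log10 q-value of 3.29, under that list's ceiling of 3.70. The peak lay outside the promoter window of rnp-1, the next coding gene, whose 5' end was 1135 bp away. Pooled peaks 1014 bp upstream (rank 10064) and 804 bp downstream (rank 14247) were weak.

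dpy-21 (V, 17936282 to 17949193, minus strand, 2 annotated 5' ends), which encodes the JmjC-domain demethylase that turns dimethylated H4K20 on X into the monomethylated form, had no optimal peak in its window. Its pooled peaks were both intronic, at 11209 bp (signal 13.6, rank 8556) and 728 bp (signal 12.7, rank 9563) downstream of the nearest 5' end, with −log10 q-values of 0.445 and 0.321. A peak overlapping the first ranked 9817 in replicate 1 and 26195 in replicate 2, so neither replicate placed it among its strongest. An optimal peak of high signal, 230.1 at rank 89, lay just outside the window, with its summit 2229 bp upstream of dpy-21. That summit was 527 bp upstream of the coding gene Y59A8B.24, whose 5' end was nearer.

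The condensin-like ring genes are led by dpy-27 and mix-1, the SMC pair. dpy-27 (III, 3813018 to 3819679, minus strand) encodes the SMC4-type ATPase that only the dosage compensation ring uses. Its optimal peak at 3820211 to 3820470 had a signal of 77.8 and ranked 1218 (68.9 percentile). Replicate 1 gave a signal of 44.4 (rank 1356) and replicate 2 a signal of 32.9 (rank 1095). The summit was 662 bp upstream of dpy-27 in the optimal list, 636 bp in replicate 1 and 685 bp in replicate 2, the farthest of the members' optimal promoter summits from the 5' end. No list held another peak in its window. The nearest annotated 5' end was not that of dpy-27 but of the non-coding RNA R13G10.5, 68 bp away, so the peak cannot be given to 1 of these genes by position.

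mix-1 (II, 10824246 to 10841424, plus strand), the longest member at 17179 bp, encodes the SMC2-type ATPase shared by all worm condensins. At its 5' end an optimal peak at 10824125 to 10824384 had a signal of 55.7 and ranked 1956 (50.04 percentile). Replicate 1 gave a signal of 32.7 (rank 2053) and replicate 2 a signal of 21.4 (rank 2029). Its summit was 9 bp downstream of the 5' end, in the 5' UTR, with the replicates' summits at 7 and 12 bp. This was the only one of the members' promoter peaks that also fell in the promoter window of another coding gene, the divergent R06F6.12, whose 5' end was 174 bp from the summit. Sharing was thus seen for 1 of 6 bound members, against 51.1% (1635) of the 3201 protein-coding genes bound in the promoter window.

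The strongest member peak of all was inside mix-1. It lay at 10840156 to 10840415 with a signal of 127.2 and ranked 476 (87.9 percentile), and its signal was 85.1 in replicate 1 (rank 386) and 47.5 in replicate 2 (rank 549). The summit was 16040 bp from the 5' end of mix-1, in intron 13 of the 15-exon gene (10840243 to 10840466). It was 31 bp upstream of M106.6, a small nucleolar RNA (snoRNA) gene on the same strand at 10840317 to 10840391. Of the 7 optimal member peaks it was the only one outside the member's own promoter window, and with it left out mix-1 would have come between sdc-1 and dpy-30 by pooled rank. Of all optimal peaks, 2.04% lay within 100 bp of a snoRNA 5' end and 4.63% within 100 bp of a tRNA 5' end.

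The consensus of the B box of tRNA genes was searched, on both strands, after the mix-1 sequence had been seen. Its letters lay at 10840299 to 10840309, ending before the snoRNA gene, and letters of the A box consensus lay at 10840255 to 10840265, 33 bp before the B box. The B box letters were within 100 bp of the summit in 3.14% of optimal peaks. The share was 8.75% for the 80 optimal peaks near snoRNA 5' ends, 61.3% for the 181 near tRNA 5' ends and 0.137% for the 3652 others. An A box followed by a B box was present in 3 of the 80 peaks near snoRNA genes (3.75%), in 44.8% of those near tRNA 5' ends, in 0.0821% of the others and in 2.22% of all optimal peaks. This pattern was picked out from the sequence of 1 peak and is a description of that sequence. That peak is itself among the 80 near snoRNA genes and is counted in their shares. A high share near tRNA 5' ends was given beforehand, since tRNA genes hold these letters as their internal promoter.

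**Figure D2:**
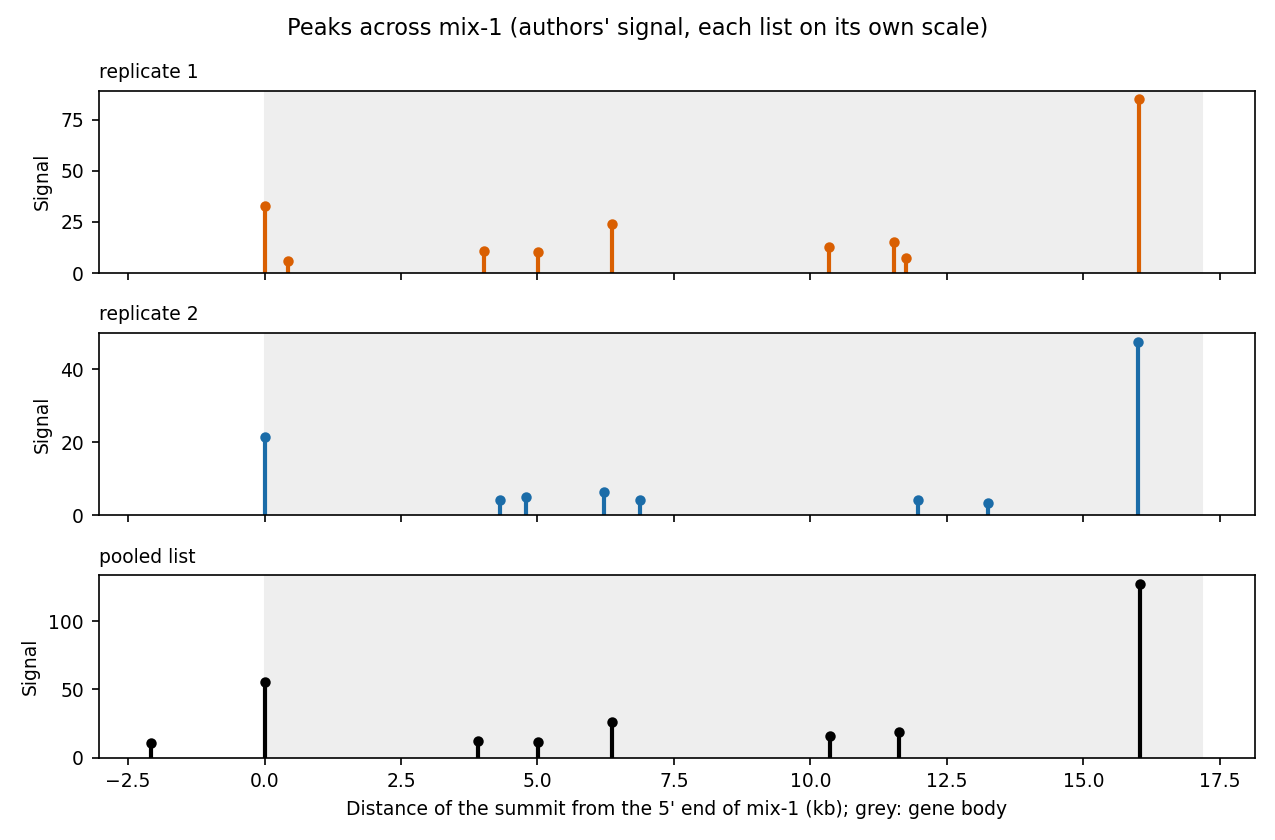
Signal (authors' peak value) of each peak in the mix-1 window against the distance in kb of its summit from the 5' end, for replicate 1, replicate 2 and the pooled list, each on its own scale. In all 3 lists the peak beside the snoRNA gene, 16040 bp from the 5' end, is the highest and the 5' end peak the next.

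Between these ends, mix-1 held weaker intronic peaks on which the replicates differed. The window held 8 pooled peaks, 9 in replicate 1 and 8 in replicate 2. The strongest outside the optimal list lay 6362 bp from the 5' end with a pooled signal of 26.3 at rank 4074. In replicate 1 it had a signal of 24.1 and ranked 2803, within that replicate's 3913 strongest, while the overlapping peak of replicate 2 had a signal of 6.50 and ranked 8177. Replicate 2 thus had a peak there too, but outside its 3913 strongest.

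dpy-26, dpy-28 and capg-1 encode the kleisin and the HEAT-repeat subunits of the ring, all shared with condensin I. dpy-26 (IV, 12445801 to 12451335, minus strand), the kleisin gene, had its optimal peak at 12451279 to 12451538 with a signal of 59.6 and rank 1794 (54.2 percentile). Replicate 1 gave a signal of 40.6 (rank 1549) and replicate 2 a signal of 18.0 (rank 2504). The summit lay close to the 5' end, 74 bp upstream, with 78 bp in replicate 1 and 90 bp in replicate 2. A pooled peak in the 3' UTR ranked 15440.

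dpy-28 (III, 10763131 to 10777076, plus strand) had no upstream peak in the pooled list. Its pooled peaks lay in coding exons at 2920 bp (signal 11.7, rank 11046) and 11177 bp (signal 10.1, rank 14722), and the first had no partner in replicate 1 and ranked 28706 in replicate 2. Replicate 1 alone had a peak upstream of it, 1100 bp away at rank 13064, and all of its peaks were weak. The nearest optimal summit, 3882 bp upstream, was that of the strongest peak of the whole list (signal 595.3), which lay 58 bp upstream of tasp-1.

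capg-1 (I, 7634492 to 7639785, minus strand) had pooled peaks 293 bp and 1848 bp upstream and no optimal peak. The nearer one, at 7639948 to 7640207, had a signal of 18.5 and ranked 5735. Its rank was 8950 in replicate 1, with a signal of 8.85, and 5478 in replicate 2, with a signal of 8.52. The farther one ranked 7551 in the pooled list. The nearest optimal summit was 19058 bp away.

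With these weaker peaks counted, all 10 members had a pooled peak in the gene window, where 51.4% of protein-coding genes had one. A pooled summit lay in the promoter window of 8 members, the 6 bound genes with sdc-3 and capg-1, against 33.7% of protein-coding genes. The pooled list includes background regions by the authors' own name for it, and its −log10 q-values go down to 0.0178.

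**Figure D3:**
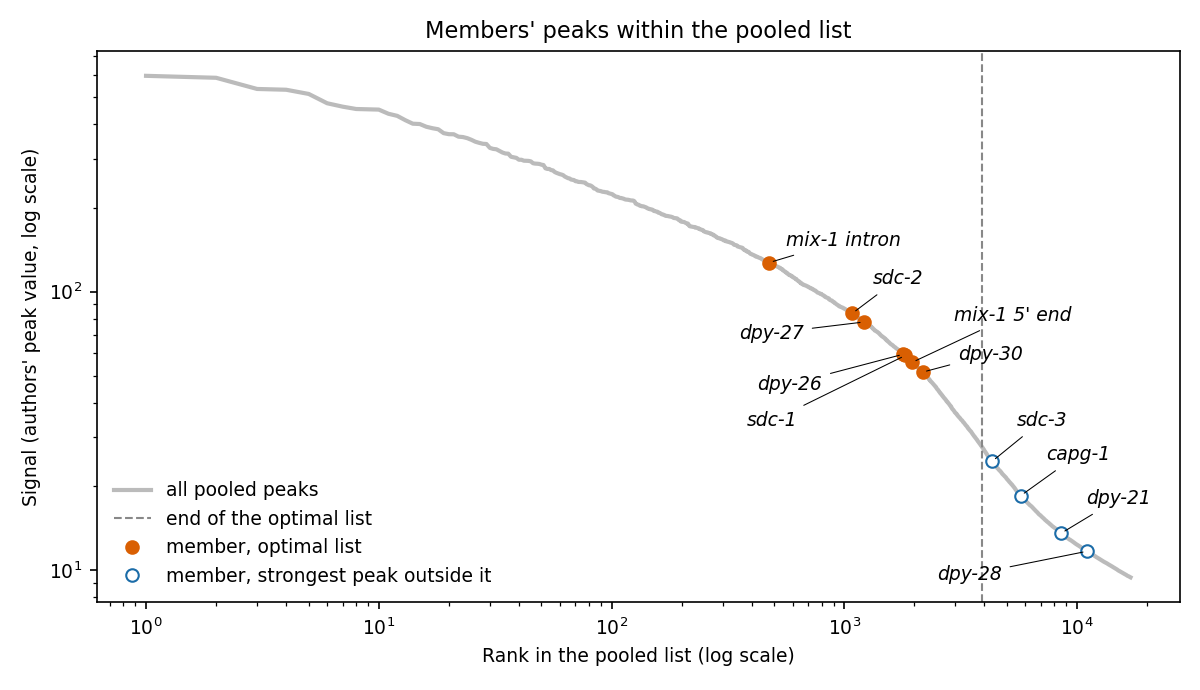
Signal against rank for all 16974 pooled peaks (grey line, both axes logarithmic) with the members' optimal peaks (filled) and the strongest peak of each of the other 4 members (open). The dashed line is the end of the optimal list at rank 3913. The optimal member peaks lie between ranks 476 and 2168, and sdc-3, at rank 4319, is the nearest below the line.

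Among the bound genes the members' signals were of middling rank. The strongest peaks of the 6 bound members had a median signal of 68.7, against 63.7 for all 4486 bound protein-coding genes (quartiles 42.6 and 102.3). Taking only summits in promoter windows, the medians were 59.3 for the members and 63.8 for all. The members' promoter summits lay at a median of 355.5 bp upstream, against 223 bp for all genes bound there.

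The replicates placed the same 6 members among their strongest peaks. Among the 3913 strongest peaks of replicate 1, 6 of 10 members had a peak in the gene window, against 22.4% of protein-coding genes. In replicate 2 it was 6 of 10 against 22.1%. Over the replicates this came to 6 ± 0 members and 4439 ± 42.4 protein-coding genes (mean ± SD, n = 2). The likeness of these counts is partly set by how the lists were made. The optimal list was itself made from both replicates, and each top list was cut to the same 3913 peaks. Both replicates ranked the mix-1 intron peak first, sdc-2 next and dpy-27 after it among the 7 peaks. Below these the order changed between replicates: dpy-26, sdc-1, dpy-30 and the mix-1 5' end peak in replicate 1, but sdc-1, the mix-1 5' end peak, dpy-26 and dpy-30 in replicate 2. In both replicates sdc-1 ranked above dpy-30 and the mix-1 5' end peak, and dpy-26 ranked above dpy-30. The other pairs among these 4 peaks changed places between replicates.

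**Figure D4:**
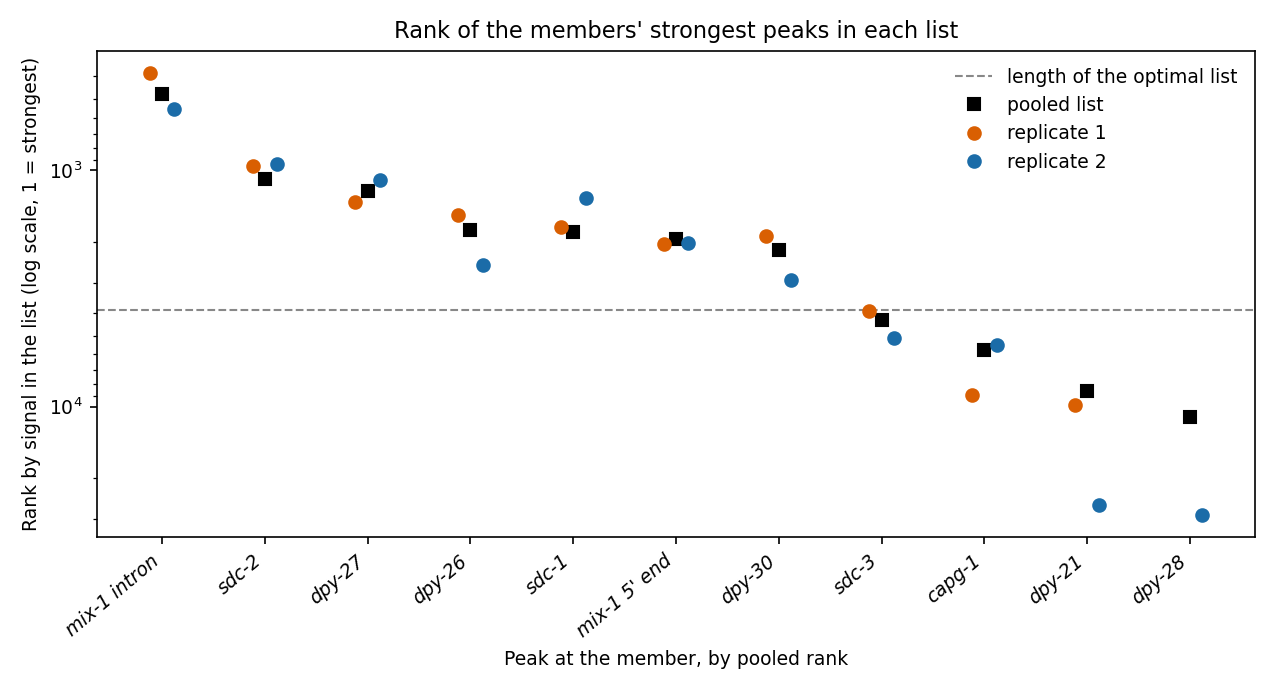
Rank by signal (logarithmic, 1 at the top) of the members' peaks in replicate 1, replicate 2 and the pooled list, for the 7 optimal peaks and the strongest pooled peak of each other member. The dashed line is rank 3913. All 7 optimal member peaks lie above it in both replicates. Of all 3913 optimal peaks, 3145 had a partner among the 3913 strongest peaks of both replicates. For dpy-28 there is no point for replicate 1 because no peak overlapped there.

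dpy-30 and dpy-26 also had the highest ratios of the replicates' signals among the 7 peaks. Over the 3145 optimal peaks with a partner in both top lists, the signal in replicate 1 divided by that in replicate 2 had a median of 1.53 (quartiles 1.26 and 1.86). The ratio was 2.28 at dpy-30 and 2.26 at dpy-26, at the 90.7 and 90.3 percentiles of those peaks. It was 1.26 at sdc-1, 1.35 at dpy-27, 1.49 at sdc-2, 1.53 at the mix-1 5' end and 1.79 at the mix-1 intron. Over the optimal list and both replicates, the summits of each of the 7 peaks lay within 5 to 52 bp of each other.

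The members are long genes, and the share of bound genes rose with gene length, in gene windows and also in promoter windows. Their median length was 7916 bp, against 2027 bp for protein-coding genes. Of the 5 members of 5000 to 10000 bp, 3 were bound, against 34.2% of 2235 genes of that length. Of the 4 members of at least 10000 bp, 2 were bound, against 45.6% of 998 genes. The remaining member, dpy-30, was bound, and genes under 2000 bp were bound in 16.5% of 9856 cases. In promoter windows the shares of all genes were 24.1%, 27.7% and 12.3% for those 3 length classes, and the members' counts were the same as in gene windows. The part of gene length in the members' count was not tested beyond these classes.

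Genes of related complexes and pathways were counted in the same way. Their lists were made from textbook roles, with earlier results of these data known. Of the 4 condensin genes outside the complex, all 4 had an optimal peak: hcp-6 (signal 107.2), kle-2 (95.4) and capg-2 (28.1), which encode subunits of condensin II, and smc-4 (53.4), the SMC4 of both mitotic condensins. Each of these 4 peaks also fell in another coding gene's promoter window. Of 6 COMPASS genes, 5 were bound. The strongest was set-16, the MLL-type methyltransferase gene (303.4, rank 38), followed by ash-2 (130.3), rbbp-5 (57.1) and set-2 (50.5), which encode core subunits and the SET1-type enzyme. The peaks at set-16, ash-2 and rbbp-5 also lay in another coding gene's promoter window, and that at set-2 did not. The H4K20 methyltransferase genes set-4 (189.2) and set-1 (129.4) were both bound in the gene window. The set-1 peak lay 1488 bp upstream, in the promoter window of jhdm-1 and outside that of set-1, so by the promoter rule 1 of the 2 was bound.

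In the X-counting and sex determination pathway, 7 of 13 matched genes were bound. They were led by ceh-39 (81.2), an X-linked homeobox gene that serves as an X signal element, fem-2 (69.2), sea-2 (52.8), an autosomal signal element, and tra-1 (50.9), the GLI-type regulator at the end of the pathway. In this list 4 of the 7 had a summit in the promoter window, but the strongest peaks of sea-2 and tra-1 lay outside theirs. xol-1, the switch gene that these signals set and that keeps the complex off in males, had no optimal peak, and its best pooled peak ranked 4220. Of 11 cohesin genes 7 were bound. By the promoter rule it was 5, without mau-2 and him-1, whose summits lay 1174 bp and 1165 bp upstream. The strongest peaks were at wapl-1 (266.9), a cohesin release factor gene that shares its peak with the histone variant gene htz-1, at scc-2 (264.1) and mau-2 (105.1), which encode the loader, and at smc-3 (104.2), whose peak also lay in the promoter windows of 2 other coding genes. Of 5 SUMO pathway genes 3 were bound, namely ubc-9 (97.2), smo-1 (82.1) and uba-2 (77.4), the last with a peak also in another coding gene's promoter window. By gene window, 28 of 41 matched genes over all 6 lists were bound, beside 6 of 10 members and 22.5% of protein-coding genes. By the promoter rule it was 4 of 4 condensin, 5 of 6 COMPASS and 3 of 5 SUMO genes, against 16% of protein-coding genes. Gene lengths of the lists were not compared.

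**Figure D5:**
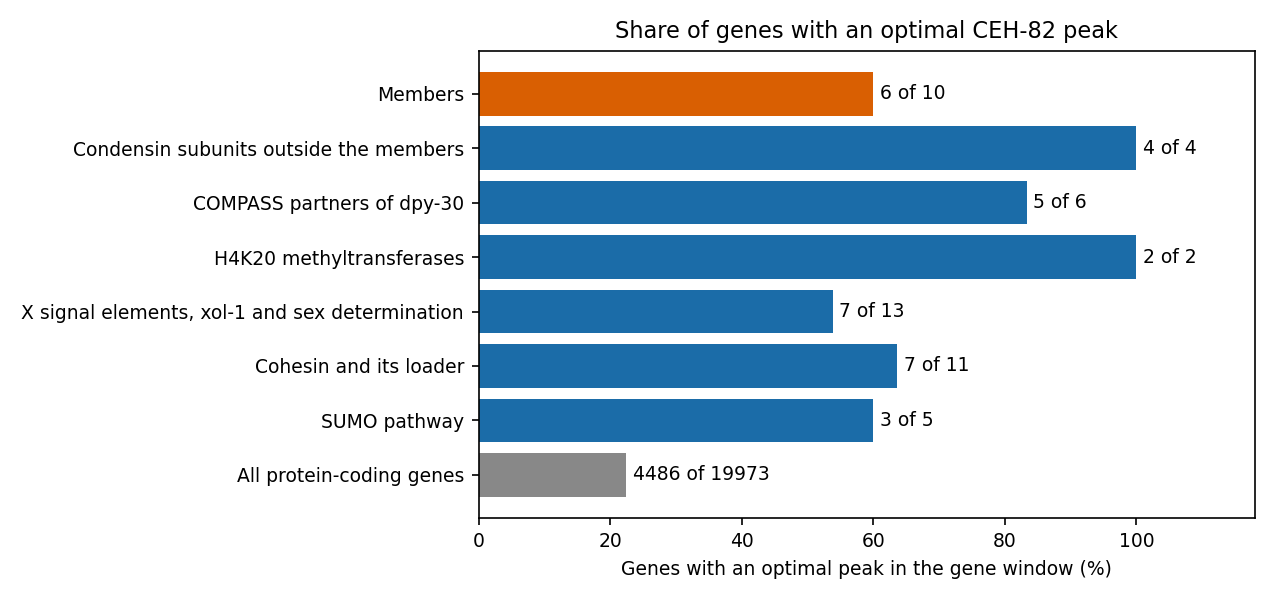
Percent of genes with an optimal peak in the gene window for the 10 members (top), the 6 lists of related genes and all protein-coding genes (bottom), with the counts beside the bars. The members are at 6 of 10, and every list lies above the bar of all protein-coding genes, with no test made on lists this short.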

How the data were processed

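ChIP-seq peak lists of eGFP-CEH-82 in 2 replicates of L1 larvae were used on ce11. Lists on ce10 were not used here. Per the deposited read-me files, 1 control alignment served both replicates, and the authors made the optimal list out of the pooled list and the list of each replicate. What aligned the reads, called the peaks and set the IDR threshold is not given in the sources used here. Each deposited narrowPeak list gives the authors' signal per peak and a q-value as −log10. The authors' −log10 q-value has a ceiling (3.82 in the optimal list, reached by 83.6% of peaks), so peaks were ranked by signal. Signals, which are the authors', were read only within a list, except in the ratios of replicate 1 to replicate 2 signal. Depth is unknown, since no list holds read counts, and no interval that needs it is given. Biological replicates are so named by the labels.

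Coordinates are 1-based on ce11. Genes came from Ensembl release 115 of WBcel235, whose chromosomes are long enough for every peak. A gene was bound when a peak overlapped its window by at least 1 bp. Each replicate's top list held its 3913 strongest peaks. Sequence came from the RefSeq genome, and UTR bases are not printed. The work used Python 3.11.15, numpy 2.4.6, pandas 2.3.3 and matplotlib 3.10.9, and the window rules were tested on simulated peaks. No statistical test was run: genes are not replicates, and there is 1 group.

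Members and lists were chosen with earlier results of these data known. The text names all 10 members, genes sharing a member's optimal promoter peak, and up to 4 bound genes per related list by signal. R13G10.5, M106.6, rnp-1, Y59A8B.24, tasp-1, xol-1, jhdm-1, htz-1, him-1 and the A and B boxes were named after their values were seen. Of 14 listed genes of the X-counting and sex determination pathway, 13 matched the annotation; smc-1 and pqn-85 were matched as him-1 and scc-2. Alternatives were other windows, summits or midpoints, the 1956 strongest optimal peaks, the full pooled list and each replicate alone. Gene windows of 3000 and 4000 bp upstream were added after the data were seen.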

Additional observations from a re-analysis of the deposited data

How the results depend on the processing

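The count of 6 bound members was 5 when windows reached only 500 bp upstream, which leaves out dpy-27, and 5 among the 1956 strongest optimal peaks, which leaves out dpy-30. Protein-coding genes with an optimal peak in a 500 bp gene window numbered 3293, against 4486 with 2000 bp. With 3000 bp upstream, chosen after seeing the data, dpy-21 was added (7 members, 5068 protein-coding genes), and with 4000 bp dpy-28 (8 members, 5588 protein-coding genes). It was 6 from either replicate alone. With the full pooled list it was 10 members and 10262 protein-coding genes. Those 1956 peaks gave 2626 protein-coding genes by gene window, 1879 by promoter window, and 18 related genes. The members' median percentile was 61.5 in the optimal list, 91.1 in the full pooled list, 53.7 over promoter summits, and 62.9 to 69.3 when 1 replicate was left out. Without replicate 1 the percentile was 36.0 for dpy-26 and 25.4 for dpy-30. With gene windows in place of promoter windows, 3 member peaks in place of 1 were shared with another coding gene. Other summary values (42) stayed within 1.5 times or the replicates' spread, and none changed sign. By the same rule 17 values for single members moved, those of dpy-26 and dpy-30 without replicate 1 among them, and 25 did not. Both replicates were called against 1 control. No paired analysis was possible because there is 1 group.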
